A study of Homo sapiens with 23 samples.

Results

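The 58 genes described here stood low in LNCaP cells that overexpressed ONECUT2 (OC2) and high in LNCaP cells that carried a hairpin against it. They were chosen from the LNCaP overexpression and hairpin table alone, by mean CPM (each count divided by its library's total, on a common scale) with an offset of 0.5 CPM added to each mean. A member had at least 5 CPM in the OC2 hairpin group, at least 2 times the OC2-overexpressing level in the control group and again in the hairpin control group, and at least 1.5 times the hairpin control level in the OC2 hairpin group. Of 60683 genes in the table, 11345 reached the level and 58 met every ratio (0.511% of the 11345). The ratios of that table therefore chose the members and are given below as a description, with no test. The LAPC4 and drug libraries took no part in the choice and are tested.

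LNCaP and LAPC4 are androgen-sensitive human prostate adenocarcinoma lines that express the androgen receptor. LNCaP was grown in RPMI-1640 with serum, as untreated Control (2 libraries), with OC2 overexpression (OC2_OE, 2 libraries), with a control hairpin (shCon, 2 libraries) or with a hairpin aimed at OC2 (shOC2, 2 libraries). LAPC4 was grown in IMDM with serum and the synthetic androgen R1881, as vector control (Vec, 3 libraries) or with OC2 overexpression (OC2OE, 3 libraries). In the drug experiment LNCaP received vehicle, enzalutamide at 10 µM, or enzalutamide at 10 µM together with an OC2 inhibitor at 10 µM, each for 7 days and in 3 libraries. The labels do not say whether libraries of a group came from separate cultures, so p-values measure only the spread between these libraries. The OC2 knockdown is 1 hairpin, and no arm received the OC2 inhibitor alone, so a difference between the combination and vehicle belongs to both drugs together.

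ONECUT2 is a transcription factor of the CUT-homeodomain family, which is best known from liver, pancreas and neurons. In prostate tumours it has been studied as a factor that can oppose the androgen receptor programme. The androgen receptor is a ligand-activated transcription factor that drives luminal prostate genes such as KLK3, which encodes prostate-specific antigen, and enzalutamide is an antagonist that blocks it.

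ONECUT2 stood at 26.5 CPM in Control and 300.3 in OC2_OE, and at 22.2 in shCon and 12.6 in shOC2. For LAPC4 and the drug table, levels of ONECUT2 and of the members are CPM after TMM scaling of the library sizes, as in the tests. In LAPC4 ONECUT2 rose from 15.5 to 896 CPM (log2 fold change 5.85, SE 0.12, edgeR adjusted p = 2.85e-10). In the drug table it stood at 15.9 ± 1.57 CPM with vehicle, 26.1 ± 4.82 with enzalutamide and 14.3 ± 1.43 with the combination (SD, n = 3), higher with enzalutamide than with vehicle (log2 fold change 0.71, SE 0.15, edgeR adjusted p = 0.00139). Library totals ran from 20964025 to 30465978 counts. All 8 identity markers of these lines were over 1 CPM on column totals in every library. Of 14 markers of stromal, endothelial and blood cells, 3 to 5 were over 1 CPM in a library, with a summed level of 7.34 to 67.2 CPM. The 3 enzalutamide columns are whole counts and the other drug columns estimated counts, and whether the counting tool or annotation also differed is not given in the sources used here. Of 10848 genes at 5 CPM or more with vehicle and with the combination, 92 (0.848%) were at 0 in all enzalutamide columns. One enzalutamide column, called column a here, also stood apart from the other two in several members. Leaving it out moved PLA2G2A, TFPI, CYP3A5 and ANGPT2 by more than 1.5-fold, and their values are given both ways.

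Of the 58 members, 57 are in GENCODE 29 on hg38, where 46 are protein coding (80.7%, against 93.6% of the genes at the same level). They lie on 20 chromosomes, with 8 on chromosome 15 and 6 on chromosome 22. SOX8 and the long noncoding RNA CEROX1 are neighbours on chromosome 16, transcribed away from each other with 211 bases between them. SOX8, a SOX-family transcription factor, runs from 981808 to 986979 on the plus strand, and CEROX1 from 975761 to 981596 on the minus strand. CYP3A5 and AZGP1 lie 286693 bases apart on chromosome 7, and APOL3 and APOL6 lie 471920 bases apart on chromosome 22. Exons of 23 members overlap an exon of another gene, 19 of them with a gene on the opposite strand, and whether counting used strand is not given in the sources used here. For these, reads of the pair may not be separable. CEROX1 shares exons with LMF1, whose means were 9.56 CPM in Control, 6.51 in OC2_OE, 24.2 in shCon and 45.0 in shOC2. The pseudogene HMGN2P46 overlaps the zinc transporter gene SLC30A4, which stood at 234.6, 43.9, 282.8 and 276.9 CPM in the same order. The unnamed antisense gene ENSG00000259352 overlaps SORD, the sorbitol dehydrogenase gene, at 1285, 480.6, 1213 and 1651 CPM. These partners were picked out after their values were seen. Members with near copies elsewhere, such as KLK3, CYP3A5, APOL3, APOL6, RN7SL1, RPL17P7 and CSPG4P10, carry the same uncertainty from reads that fit more than 1 gene.

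Promoter sequence was found for 36 members in RefSeq (GRCh38.p14), from 250 bases before to 50 bases after the annotated start. The androgen receptor binds elements whose conserved arm is TGTTCT. This hexamer, searched on both strands, was in 6 of the 36 member promoters (16.7%) and in 14.9% of all 27305 promoters. The OC2-type letters ATCAAT were in 0 of the 36 and in 6.40% of all promoters, and ATCGAT in 0 of the 36 and 0.776% of all. The FOX-type letters TGTTTAC were in 0 of the 36 and 3.41% of all, and ACGTG in 16.7% and 21.6%. The median share of G and C letters was 61.3% in the 36 and 58.3% in all promoters, and the motif shares were not adjusted for it. Short letter matches do not mark bound sites, and no match says only that these letters are not in these windows. The 4 promoters printed here carry TGTTCT on either strand, in capitals, and belong to a pair of members that fell with enzalutamide (KLK3 and LCP1, the latter's call being lost with total counts as the scale) and a pair that rose with it (PLA2G2A and GASK1B). KLK3 is on the plus strand at chr19:50854665-50854964, LCP1 on the minus strand at chr13:46182128-46182427, PLA2G2A on the minus strand at chr1:19979610-19979909 and GASK1B on the minus strand at chr4:158172976-158173275.
KLK3: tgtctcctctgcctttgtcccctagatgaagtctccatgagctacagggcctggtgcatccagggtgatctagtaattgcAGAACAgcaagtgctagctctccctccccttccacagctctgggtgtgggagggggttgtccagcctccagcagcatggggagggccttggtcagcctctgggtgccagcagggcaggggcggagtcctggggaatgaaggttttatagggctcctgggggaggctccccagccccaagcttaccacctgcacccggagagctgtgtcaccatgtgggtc
LCP1: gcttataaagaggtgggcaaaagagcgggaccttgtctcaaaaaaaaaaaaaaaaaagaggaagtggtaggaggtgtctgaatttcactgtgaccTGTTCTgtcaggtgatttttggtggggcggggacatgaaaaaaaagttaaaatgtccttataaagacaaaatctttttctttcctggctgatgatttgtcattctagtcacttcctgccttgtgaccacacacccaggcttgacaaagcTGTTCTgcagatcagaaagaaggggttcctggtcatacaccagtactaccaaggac
PLA2G2A: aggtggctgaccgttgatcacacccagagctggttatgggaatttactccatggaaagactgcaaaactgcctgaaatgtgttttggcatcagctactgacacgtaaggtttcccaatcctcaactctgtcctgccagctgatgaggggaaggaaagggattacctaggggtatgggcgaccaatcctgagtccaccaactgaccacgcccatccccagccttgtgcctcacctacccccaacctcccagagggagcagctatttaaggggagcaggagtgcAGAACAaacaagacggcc
GASK1B: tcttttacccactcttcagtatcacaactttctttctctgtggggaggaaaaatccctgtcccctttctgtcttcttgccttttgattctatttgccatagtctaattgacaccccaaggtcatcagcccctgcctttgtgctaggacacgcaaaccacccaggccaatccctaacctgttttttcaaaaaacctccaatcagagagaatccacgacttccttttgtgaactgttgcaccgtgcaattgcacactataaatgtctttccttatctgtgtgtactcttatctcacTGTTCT
The matches begin 170 bases before the KLK3 start, 155 and 6 bases before the LCP1 start, and at bases 33 and 45 after the PLA2G2A and GASK1B starts. These 4 were picked after their values were seen, to show both directions, so nothing follows from the directions. The other member promoters with the hexamer were those of CYP3A5 and SNHG14, which did not pass the test with enzalutamide when all columns were used.

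In the LNCaP table the members' median ratio was 3.14 for Control over OC2_OE and 3.00 for shCon over OC2_OE, against 0.997 and 1.12 over the 11345 genes. The median for shOC2 over shCon was 1.86, against 0.986. The shares of the 11345 genes that met each ratio on its own were 5.32%, 7.17% and 9.15%. The OC2_OE libraries lay below every other library for 56 of the 58 members, the exceptions being RPL17P7 and ENSG00000257411. Both shOC2 libraries lay above all 6 others for 50 members, and not for SLC44A4, FBLN2, AZGP1, RPL17P7, PPL, NOSTRIN, ENSG00000278600 and KLK3. The rule required a low OC2_OE mean and a shOC2 mean above shCon, so these counts follow largely from the choice. Only the order of shOC2 and Control was not set by it. Shares of the 11345 genes with the same order of libraries are not given here, so nothing follows from these counts. Just inside the limits were FBLN2 at 5.73 CPM, TTLL6 at 2.01 for Control over OC2_OE and 1.52 for shOC2 over shCon, and LIF at 2.02 for shCon over OC2_OE. Just outside were C13orf46 at 4.79 CPM, UBA7 at 1.97, NOTCH3 at 1.498 and SMIM10L2A at 1.95 on the same measures. Grouped by role, which was done after their values were seen, the members comprised 10 enzymes, 6 transporters, channels or pumps, 7 receptors, ligands or surface proteins, 7 secreted proteins, 8 proteins of the cytoskeleton, junctions or membrane traffic, 4 regulators of transcription or translation, 2 other proteins and 14 noncoding, pseudogene or unnamed genes.

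Among secreted proteins, KLK3 had the highest level. It stood at 3069 and 2994 CPM in Control, 1002 and 936 in OC2_OE, 1901 and 2019.5 in shCon, and 2952 and 3002 in shOC2. Both OC2_OE libraries were lowest. The shOC2 and Control libraries overlapped, and the shOC2 mean (2977 CPM) did not exceed the Control mean (3032). Per kilobase of exon, which allows comparison between genes, KLK3 reached 653.6 CPM in Control, where AZGP1 reached 106 and MAOA 75.8. AZGP1 encodes a secreted zinc-binding glycoprotein of prostate fluid. Its libraries held 268 and 305 CPM in Control, 5.59 and 6.22 in OC2_OE, 16.8 and 17.4 in shCon, and 43.2 and 46.5 in shOC2, so its hairpin libraries all lay far below Control. TFPI, an inhibitor of the tissue factor pathway of coagulation, stood at 35.2 and 35.5, 9.70 and 10.1, 39.6 and 35.3, and 106 and 107 CPM in the same order. LGALS3BP, a secreted galectin-binding glycoprotein, ran from 3.40 CPM in OC2_OE to 58.5 in shOC2. SERPIND1, which encodes the thrombin inhibitor heparin cofactor II, held 1 count in all in OC2_OE and reached 8.59 and 7.24 CPM in shOC2. The matrix gene FBLN2 was at 0 in both OC2_OE libraries and at 4.96 and 6.50 CPM in shOC2.

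The enzymes include DDC, aromatic L-amino acid decarboxylase, which makes dopamine and serotonin and also binds the androgen receptor. DDC had the largest ratio of shOC2 to OC2_OE among the members, 60.3 with the offset. Its libraries held 54.9 and 55.3 CPM in Control, 0.626 and 0.403 in OC2_OE, 3.54 and 3.76 in shCon, and 57.5 and 63.8 in shOC2. The hairpin against OC2 thus stood at the level of untreated Control, and the control hairpin stood below it. ALDH1A3, which makes retinoic acid and is androgen-induced in prostate cells, held 39.7 and 41.5, 4.34 and 5.78, 56.1 and 50.9, and 160 and 148 CPM. ELOVL7, a very-long-chain fatty acid elongase, held 121 and 124, 20.6 and 24.5, 62.5 and 71.1, and 313 and 306 CPM. In both, the OC2_OE and shOC2 libraries were the 2 extremes. MAOA, the mitochondrial monoamine oxidase, was high throughout at 408 and 429, 132 and 138, 410 and 426, and 743 and 714 CPM. ABAT, which breaks down the transmitter GABA, ran from 8.23 CPM in OC2_OE to 83.2 in shOC2 on average.

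Of the transporters and channels, SLC44A4, a choline transporter-like protein that carries thiamine pyrophosphate, held 187 and 161 CPM in Control, 2.86 and 3.54 in OC2_OE, 101 and 90.9 in shCon, and 161 and 164 in shOC2. TRPM8, the cold-sensing cation channel that is a known androgen receptor target, held 49.8 and 49.0, 3.93 and 4.26, 34.9 and 37.1, and 160 and 144 CPM. In shOC2, SLC44A4 thus stood near the lower of its Control libraries, and TRPM8 stood above both of its own. The riboflavin transporter SLC52A3 was under 1 CPM in Control and at 11.5 and 11.6 CPM in shOC2. ATP2B4, a plasma membrane calcium pump, held 47.8 and 46.2, 5.50 and 6.76, 47.7 and 41.9, and 88.2 and 81.9 CPM.

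Among receptors and ligands, EGFR, the epidermal growth factor receptor, held 98.0 and 106 CPM in Control, 25.6 and 25.0 in OC2_OE, 54.8 and 62.3 in shCon, and 144 and 126 in shOC2. TNFRSF19, a receptor of the tumour necrosis factor receptor family that is linked to Wnt signalling, held 35.4 and 35.97, 5.14 and 5.78, 36.4 and 33.5, and 65.0 and 66.3 CPM. ANGPT2, a ligand of the endothelial receptor TIE2, was low in Control at 1.01 and 1.03 CPM and reached 8.73 and 14.1 in shCon and 21.8 and 19.7 in shOC2. The cytokine gene LIF stayed between 1.70 and 10.2 CPM. LCP1, which encodes the actin-bundling protein L-plastin, held 286 and 285 CPM in Control, 32.1 and 34.7 in OC2_OE, 189 and 175 in shCon, and 736 and 706 in shOC2. RAB3B, a small GTPase of regulated secretion, averaged 41.7 CPM in OC2_OE and 198 in shOC2. SOX8 held 9.59 and 7.95, 3.40 and 4.48, 10.3 and 8.84, and 67.1 and 69.4 CPM, and its neighbour CEROX1 5.95 and 4.43, 1.56 and 2.02, 9.52 and 6.50, and 45.9 and 52.5. Both stood out by their rise in shOC2, while their other 3 groups lay closer together.

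**Figure D1:**
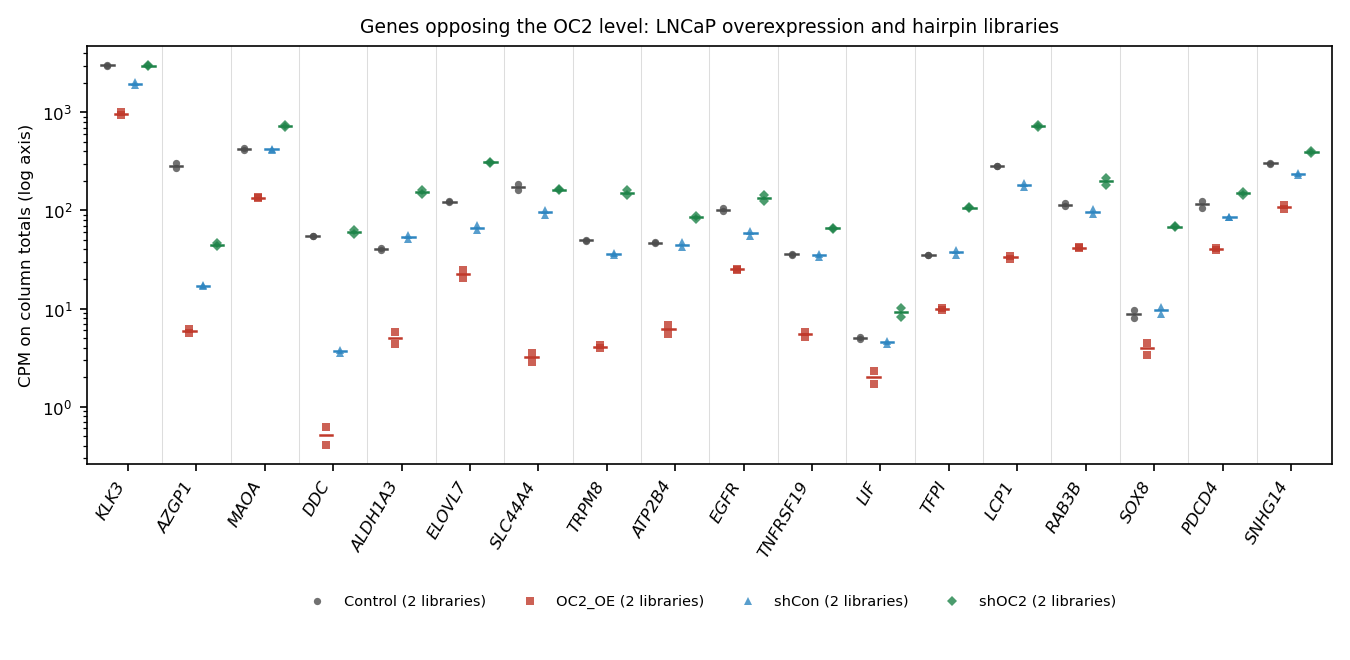
Levels of 18 members in each LNCaP library, in CPM on column totals with a log axis; points are libraries, short lines are group means, and colours are the 4 groups. OC2_OE is lowest for every gene shown, and DDC and AZGP1 also show the gap between Control and shCon.

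The 2 reference groups differed for part of the members. With the offset, 13 members stood more than 1.5-fold lower in shCon than in Control and 10 more than 1.5-fold higher. The median ratio of shCon to Control was 0.9504 over the members and 1.12 over the 11345 genes. Shares of the 11345 genes past 1.5-fold are not given here, so whether such gaps are particular to the members was not tested. AZGP1 averaged 286.7 CPM in Control and 17.1 in shCon, and DDC 55.1 and 3.65. ANGPT2 was 7.81-fold higher in shCon. For these members the ratio to OC2_OE depends on which reference is used, and a hairpin, its vector and a separate culture cannot be told apart as sources of the gap.

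Gene lists were used to place the members, as a description with no test, since the rule used these ratios. Of 39 androgen-induced genes at the required level, 4 were members (KLK3, TRPM8, AZGP1 and ALDH1A3), or 10.3%, beside 0.511% of all genes at that level. Counting the 4 members, which meet every ratio by the rule, 11 of these 39 genes met the Control ratio (28.2%, beside 5.32% of all). The shCon ratio was met by 12 (30.8%, beside 7.17%) and the shOC2 ratio by 22 (56.4%, beside 9.15%). The median ratios of the 39 genes were 1.55, 1.66 and 1.53. DDC was the only member among 9 androgen-repressed genes (11.1%) and among 3 neuroendocrine markers (33.3%). The p53 targets held 1 of 23 (TP53I3, 4.35%) and sterol and fatty acid synthesis 1 of 27 (ELOVL7, 3.70%). Receptor kinases and ligands held 1 of 17 (EGFR, 5.88%), and chemokines and cytokines 1 of 7 (LIF, 14.3%). Each of these shares rests on 1 member, beside 0.511% of all genes at that level. No member was on the fixed lists of 33 cell cycle genes, 16 luminal epithelial genes, 12 interferon-stimulated genes or 13 glucocorticoid receptor targets. Only genes on these lists were counted.

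The first tested comparison asked whether OC2 overexpression lowers the same genes in LAPC4. It lowered some and raised others, and calls of any size came in shares near those of all genes. Of the 58 members 57 are listed in the LAPC4 table, 2 of them at 0 in every library, and 48 passed the filter on low counts. Of these 48, 13 fell and 18 rose, and 17 did not pass the test (edgeR, Benjamini-Hochberg adjusted p under 0.05 over all 16904 genes). Over all genes tested, 29.0% fell and 32.1% rose, so the shares of members that fell (27.1%) and rose (37.5%) lay near the background. The members' median log2 fold change was -0.0038, beside 0.0031 over all genes. Changes of at least 2-fold comprised 4 falls and 12 rises among the 48, beside 8.12% and 12.9% of all genes. The 2-fold rises were thus a larger share of the 48 than of all genes, while the 2-fold falls lay near the background. Whether this gap is particular to the members was not tested.

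KLK3 fell the most. It stood at 173, 181 and 205 CPM in Vec and at 25.7, 20.0 and 44.4 in OC2OE (log2 fold change -2.64, SE 0.24, edgeR adjusted p = 9.59e-06). The groups did not overlap. STXBP5L, a tomosyn-family protein of vesicle docking, stood at 28.1, 30.3 and 34.5 CPM in Vec and 11.0, 11.9 and 13.1 in OC2OE (log2 fold change -1.37, SE 0.11). GASK1B, a Golgi-associated kinase-like protein, fell from 2.57, 2.69 and 2.93 CPM to 0.363, 0.611 and 0.836 (log2 fold change -2.17). The ephrin receptor gene EPHA6 (log2 fold change -1.07), TNFRSF19 (-0.78), SLC44A4 (-0.67) and RAB3B (-0.54) also fell. DDC was low in LAPC4, at 2.74 to 3.69 CPM in Vec, and fell to 1.52 to 1.93 (log2 fold change -0.95). The falls thus included members of 6 roles, the noncoding group among them through HMGN2P46 and SNHG14, and TRPM8 (log2 fold change -0.45, SE 0.19, edgeR adjusted p = 0.0627) and ELOVL7 (-0.0009, SE 0.09) did not pass the test.

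LIF had the largest rise. It stood at 0.171, 0.241 and 0.174 CPM in Vec and at 115, 117 and 122 in OC2OE (log2 fold change 9.21, SE 0.12, edgeR adjusted p = 3.60e-11). LIF was therefore among the members that stood lower with OC2 overexpression in LNCaP and higher with it in LAPC4. LGALS3BP rose from 1.52 to 2.22 CPM up to 112 to 122 (log2 fold change 5.95), and TFPI from 3.27 to 5.10 up to 71.9 to 73.7 (4.15). APOL6, an apolipoprotein L family member, reached 6.21 to 6.86 CPM from at most 0.207 (log2 fold change 5.66). TP53I3, a p53-induced quinone oxidoreductase, rose from 3.63, 4.21 and 3.10 CPM to 39.3, 44.4 and 44.0 (3.54). Of the 22 other p53 targets tested, 10 rose and 3 fell, with a median log2 fold change of 0.29.

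EGFR stood at 64.5, 70.6 and 85.8 CPM in Vec and at 183, 196 and 214 in OC2OE (log2 fold change 1.42, SE 0.11, edgeR adjusted p = 2.47e-06). ALDH1A3 rose from 16.6, 15.6 and 12.7 CPM to 43.4, 49.0 and 40.2 (log2 fold change 1.56), and LCP1 from 10.7, 11.6 and 10.9 to 26.1, 24.0 and 24.0 (1.16). AZGP1 was well expressed in LAPC4 and rose from 176 to 190 CPM up to 259 to 277 (0.56). ANGPT2 held 1 count over the Vec libraries and 48 over the OC2OE libraries, a ratio of 46.7 with an exact 95% binomial interval of 7.99 to 1883 that covers counting error only. Of the 4 androgen-induced members, KLK3 alone passed the test as a fall, with ALDH1A3 and AZGP1 rising. The 36 other androgen-induced genes tested had 19 falls and 8 rises, with a median log2 fold change of -0.31.

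On column totals, the summed level of the 14 markers of other cells was 7.34 to 11.7 CPM in Vec and 22.0 to 24.2 in OC2OE, with 3 to 4 and 5 markers over 1 CPM. HBB was at 0 in all 6 libraries, and PECAM1, PTPRC and CD3E stayed at or under 0.105 CPM. DCN, PDGFRB, CD14 and CD68 stayed under 0.37 CPM. COL1A2 moved most, from at most 0.07 CPM to between 7.09 and 10.4. Means in Vec and OC2OE were 0.891 and 3.86 CPM for LUM and 0.173 and 0.512 for COL3A1. They were 3.71 and 4.46 for COL1A1, 1.79 and 2.08 for CDH5, and 2.62 and 2.51 for VWF. Their part in the members' rises was not tested. In bulk RNA, fewer cells that express a gene and less RNA per cell cannot be told apart.

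**Figure D2:**
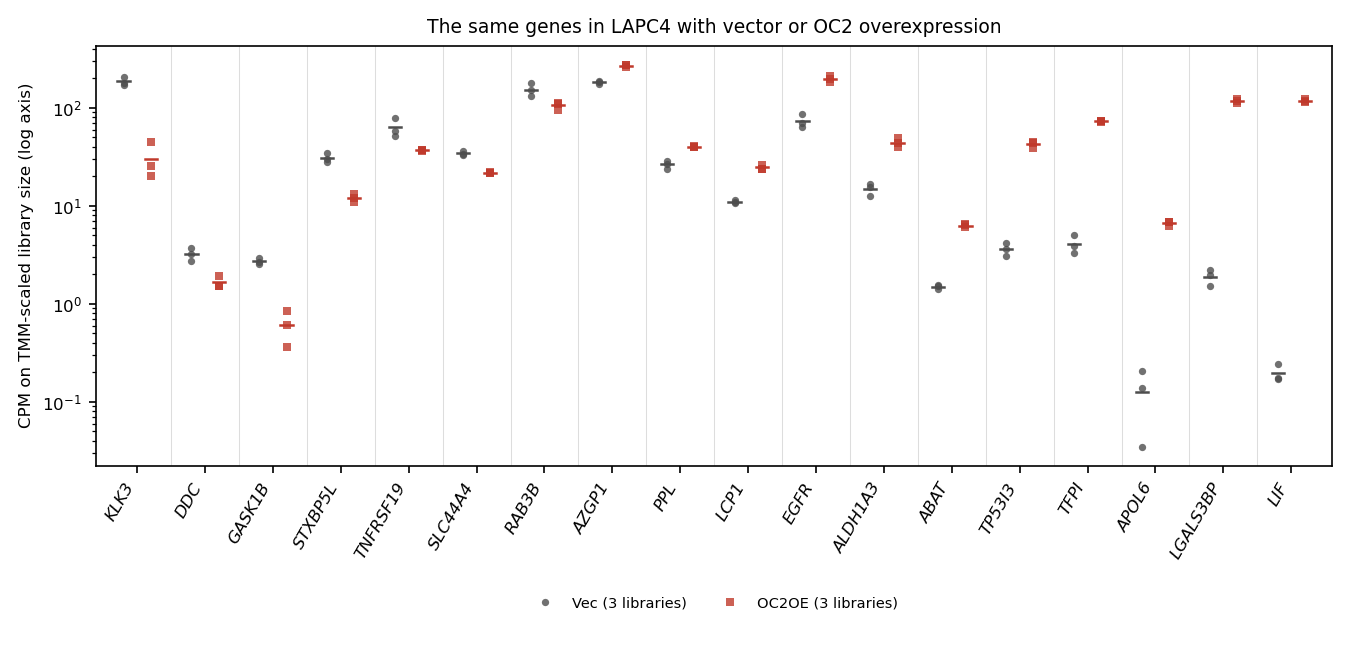
Levels of 18 members in each LAPC4 library, in CPM on the TMM-scaled library size with a log axis; points are libraries, short lines are group means. Genes on the left, such as KLK3, are lower in OC2OE, and genes on the right, such as LIF at 115 to 122 CPM, are higher.

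The second tested comparison followed the members under enzalutamide. Of 49 members listed in the drug table all 49 were tested, and 12 were lower and 25 higher than with vehicle. The background was 35.6% lower and 34.7% higher over all 17439 genes. The members' median log2 fold change was 0.38, beside 0.01 over all genes. Scaling by total counts alone moved the median of all genes to 0.35 and that of the members to 0.72, with 9 members lower and 29 higher. Over the 33943 genes of the table without the filter, the median of all genes was 0.28 with edgeR and 0.27 with DESeq2, beside 0.39 and 0.38 for the members. Over the 17439 filtered genes the same fits gave 0.02 and 0.01.

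KLK3 stood at 1535, 1830.0 and 1621 CPM with vehicle and at 137, 403 and 348 with enzalutamide (log2 fold change -2.49, SE 0.32, edgeR adjusted p = 5.87e-05). Column a held the lowest of these values, the groups did not overlap, and without column a the log2 fold change was -2.15. ALDH1A3 fell from 64.4, 74.8 and 61.8 CPM to 14.9, 13.6 and 15.7 (log2 fold change -2.19, SE 0.10). ELOVL7 fell from 102, 119 and 98.2 CPM to 18.4, 29.6 and 28.7 (log2 fold change -2.06). TNFRSF19 fell from 53.2, 56.4 and 51.3 CPM to 7.56, 16.7 and 14.9 (-2.04). ANGPT2 fell from 11.0, 16.0 and 10.7 CPM to 1.13, 0.467 and 0.438 (-4.20, and -4.78 without column a). The zinc finger pseudogene ZNF812P fell from 17.4 to 21.4 CPM down to about 0.5 in each column (-5.24). The fall of TRPM8 was smaller (log2 fold change -0.85, edgeR adjusted p = 0.0273). With total counts as the scale its adjusted p was 0.173, and when the 2 arms were fitted alone it was 0.0566. The call was also lost without column b (edgeR adjusted p = 0.0845) or column c (0.0862), and without vehicle replicate 2 (0.0670) or 3 (0.0646). TRPM8 held 10.9 CPM in column a and 4.95 and 4.29 in the others, against 11.0, 12.8 and 12.6 with vehicle. Without column a its log2 fold change was -1.40 (edgeR adjusted p = 7.19e-06). LCP1 fell (log2 fold change -0.63, edgeR adjusted p = 0.00903), and with total counts this was -0.28 (adjusted p = 0.195). The falls thus joined androgen-induced members with others that are not on that list. RN7SL1, the RNA of the signal recognition particle, was listed at 0 in all enzalutamide columns and at 6.57 to 39.2 CPM with vehicle. It is 1 of the 92 genes named above, so its call cannot be told apart from that difference between the columns.

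The rises under enzalutamide were led by PLA2G2A, a secreted phospholipase A2. It stood at 16.2, 24.2 and 18.1 CPM with vehicle and at 588, 190 and 197 with enzalutamide (log2 fold change 4.06, SE 0.46, edgeR adjusted p = 2.16e-05). Column a held the highest value, and the other columns still lay above every vehicle library. Without column a the log2 fold change was 3.30 (SE 0.21, edgeR adjusted p = 1.06e-07). DDC stood at 30.0, 30.5 and 29.3 CPM with vehicle and 365, 358 and 329 with enzalutamide (3.55, SE 0.11). GASK1B rose from 86.6, 96.5 and 80.6 CPM to 502, 380 and 393 (2.27), and STXBP5L from 38.5 to 41.8 CPM up to 147 to 206 (2.08). APOL6 rose from 2.88, 5.07 and 2.85 CPM to 49.2, 38.7 and 53.8 (3.71), and APOL3 from 3.85, 6.24 and 3.82 to 16.4, 17.9 and 21.7 (2.01). DAPK2, a calmodulin-regulated death-associated kinase, rose from about 5 CPM to 24.2 to 43.9 (2.67), and FBLN2 from 5.31 to 6.19 up to 23.2 to 28.4 (2.13).

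EGFR (log2 fold change 0.84), SLC44A4 (1.12), LGALS3BP (1.27) and LIF (0.77) also rose. AZGP1 (-0.07, SE 0.30), MAOA (-0.22, SE 0.10) and RAB3B (-0.10, SE 0.14) did not pass the test. Without column a, CYP3A5, a drug- and steroid-oxidising cytochrome, went from -0.01 to -1.20 (edgeR adjusted p = 0.00161) and TSPAN6, a tetraspanin, from 0.38 to 0.55 (0.000617), both then past the threshold. Without that column ZNF827 (0.17, adjusted p = 0.0865) and the noncoding RNA MALINC1 (0.30, 0.193) lost their calls as rises. TFPI held 102 CPM in column a and 27.4 and 30.1 in the others, against 112 to 123 with vehicle. Its fall (log2 fold change -1.14, edgeR adjusted p = 0.0273) had an adjusted p of 0.0700 without column b and 0.0861 without column c, and it was also lost with the 2 arms alone, with total counts and without each vehicle library. Without column a it was -2.03 (SE 0.07, adjusted p = 9.21e-10).

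**Figure D3:**
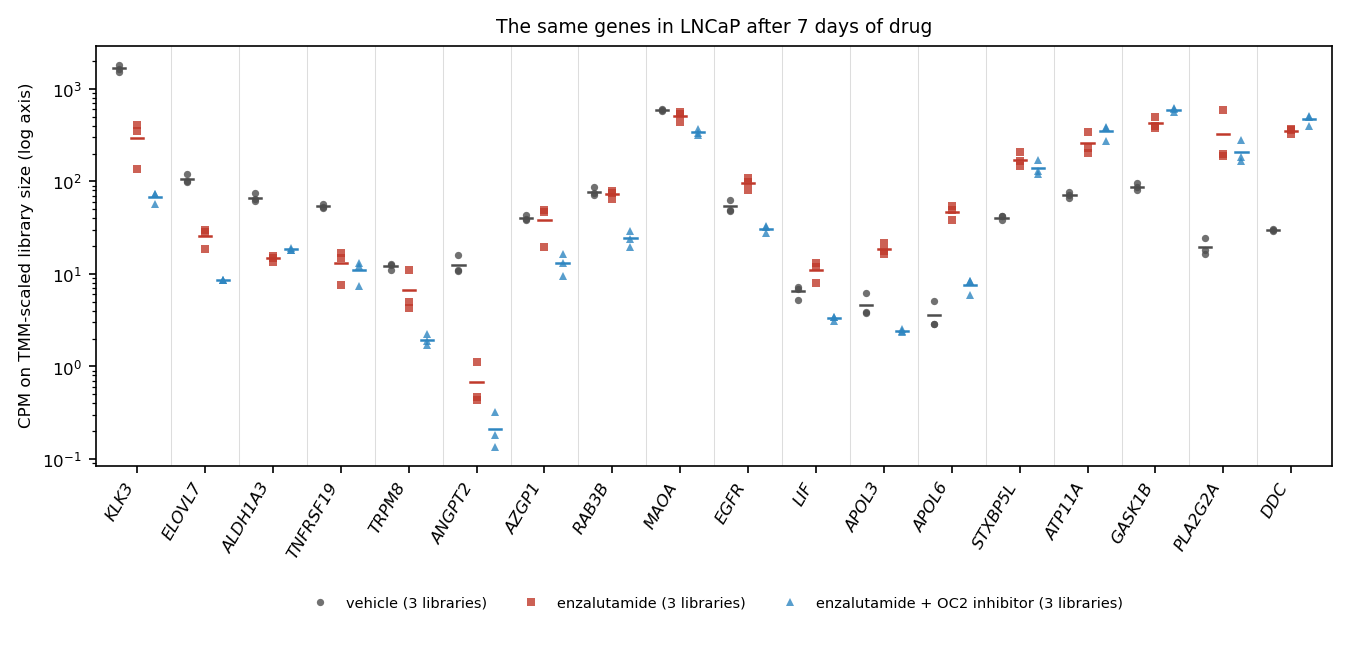
Levels of 18 members in each library of the drug experiment, in CPM on the TMM-scaled library size with a log axis; points are libraries or columns, short lines are arm means. KLK3 to ANGPT2 are below vehicle in both drug arms, STXBP5L to DDC are above it in both, and EGFR, LIF and APOL3 are above it with enzalutamide and below it with the combination.

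With enzalutamide and the OC2 inhibitor together, 19 of the 49 members were lower and 20 higher than with vehicle, beside 23.6% and 23.2% of all genes. The members' median log2 fold change was -0.19, beside 0.01 over all genes, and it ran from -0.25 to 0.08 as single libraries were left out, turning above 0 without vehicle replicate 2 (0.07) or combination replicate 3 (0.08). With these 2 arms fitted alone, 23 were lower and 20 higher, and with the replicate number added as a block 24 and 20. The enzalutamide and combination comparisons share the vehicle libraries, so likeness between them is not a result.

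KLK3 stood at 72.7, 57.5 and 74.0 CPM with the combination (log2 fold change -4.61, SE 0.36, edgeR adjusted p = 8.35e-06), below all vehicle libraries. ELOVL7 stood at 8.66, 8.54 and 8.67 CPM (-3.62, SE 0.18), TRPM8 at 2.22, 1.70 and 1.86 against 11.0, 12.8 and 12.6 with vehicle (-2.65), and ANGPT2 at 0.136, 0.322 and 0.182 (-5.85). AZGP1 fell from 39.7, 43.6 and 38.0 CPM to 13.1, 9.46 and 16.6 (-1.63), RAB3B from 74.3, 86.6 and 71.5 to 24.0, 29.2 and 19.5 (-1.68), and MAOA from 580 to 609 down to 315 to 370 (-0.80). All 4 androgen-induced members fell, as did 32 of the 36 other androgen-induced genes tested, with 2 rising (29 and 4 with enzalutamide alone). The median log2 fold change of those 36 was -1.60 with the combination and -1.85 with enzalutamide.

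Of the members that rose, DDC reached 500, 401 and 506 CPM (log2 fold change 3.97, SE 0.11, edgeR adjusted p = 6.17e-08). GASK1B reached 626, 566 and 602 (2.77), PLA2G2A 168, 277 and 181 (3.42), and ATP11A, a phospholipid flippase, 390, 273 and 379 from 66.1 to 76.0 (2.29). SUSD2, a membrane protein with sushi domains, reached 28.8, 30.1 and 30.7 CPM from 4.63, 6.29 and 5.51 (2.45). SLC44A4, SOX8, TFPI, CYP3A5 and SNHG14, the host transcript of imprinted small nucleolar RNAs, did not pass the test with the 3 arms fitted together. With vehicle and the combination fitted alone, SLC44A4 (-0.25, edgeR adjusted p = 0.0236), TFPI (-0.23, 0.0055), CYP3A5 (-0.85, 0.00138) and SNHG14 (-0.31, 0.00964) passed as falls. With the replicate block added these 4 passed again, and SOX8 also did (-0.32, 0.0175).

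The last comparison set the combination against enzalutamide alone. Of 49 members 21 were lower and 10 higher, beside 30.4% and 31.4% of all genes, and with total counts as the scale 27 were lower and 5 higher. The median log2 fold change of the members was -0.41, beside -0.02 over all genes, and -0.67 beside -0.28 with total counts. Over the 33943 genes without the filter, the median of all genes was -0.25 with edgeR and with DESeq2, beside -0.41 for the members. Over the 17439 filtered genes these fits gave -0.02. This contrast also sets estimated counts against whole counts. APOL3 stood at 2.40, 2.57 and 2.36 CPM with the combination, against 16.4, 17.9 and 21.7 with enzalutamide (log2 fold change -2.93, SE 0.21, edgeR adjusted p = 1.09e-06). APOL6 stood at 5.94, 8.45 and 8.31 against 49.2, 38.7 and 53.8 (-2.64), and LIF at 3.45, 3.08 and 3.45 against 7.95, 11.96 and 13.3 (-1.73). EGFR stood at 32.0, 27.7 and 32.9 CPM with the combination, 81.6, 109 and 99.1 with enzalutamide and 49.7, 63.7 and 48.2 with vehicle, so the 3 arms did not overlap (combination minus enzalutamide -1.65, SE 0.14). Of the 21 other receptor kinases and ligands tested, 7 were lower and 4 higher with the combination than with enzalutamide. Of 16 other chemokines and cytokines, 13 were lower and 1 higher. Of 23 listed interferon-stimulated genes, none of them members, 18 were lower and 3 higher, with a median log2 fold change of -1.93.

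KLK3 (-2.12), TRPM8 (-1.80), RAB3B (-1.58), ELOVL7 (-1.57), AZGP1 (-1.56) and SLC44A4 (-1.37) were also lower with the combination than with enzalutamide. Without column a these were -2.46, -1.25, -1.51, -1.75, -1.87 and -1.62 in the same order. Among the 36 other androgen-induced genes 12 were lower and 13 higher in this contrast, with a median of 0.0017. ZNF827, a zinc finger protein (0.93), SLC52A3 (0.88) and MALINC1 (1.62) were higher, as were DDC (0.42) and GASK1B (0.49), both of which did not pass the test with total counts (adjusted p = 0.169 and 0.118). TFPI stood at 96.9, 102 and 97.6 CPM with the combination, and its difference from enzalutamide went from 0.90 (adjusted p = 0.0746) to 1.79 (3.02e-09) without column a. ANGPT2, at -1.65 with all columns, was at -1.07 without column a (adjusted p = 0.0599). PLA2G2A went from -0.64 to 0.12 and CYP3A5 from -0.85 to 0.34, and neither passed either way. Without column a, ATP11A (0.69) and EPHA6 (0.44) also passed as higher and TNFRSF19 (-0.52), SNHG14 (-0.47) and ZNF462 (-0.25) as lower, while SOX8 lost its call (from 0.46 to 0.30, adjusted p = 0.0631).

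Calls in LAPC4 and in the drug arms could be set side by side for 42 members, with no library in common. TNFRSF19 and KLK3 were lower with OC2 overexpression in LAPC4 and with both drug treatments. DDC, STXBP5L, GASK1B, SUSD2 and HMGN2P46 were lower in LAPC4 and higher with both drug treatments, although HMGN2P46 lost its LAPC4 call with DESeq2 (adjusted p = 0.246) and both it and SUSD2 lost it without 5 of the 6 libraries in turn. ABAT, ATP11A, LGALS3BP, PPL, ZNF462 and APOL6 were higher in all of these. So were TP53I3 and MALINC1, with 1 call each that depended on the fit. TP53I3 with the combination (0.42, edgeR adjusted p = 0.0492) did not pass with DESeq2 (0.0588), RLE scaling (0.0514), no filter (0.0845) or without 5 of the 6 libraries in turn. MALINC1 with enzalutamide (0.64, edgeR adjusted p = 0.0460) did not pass with the 2 arms alone (0.0526), without column a or without any 1 vehicle library. The members, alike by choice in the LNCaP table, thus took different directions in the other libraries.

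**Figure D4:**
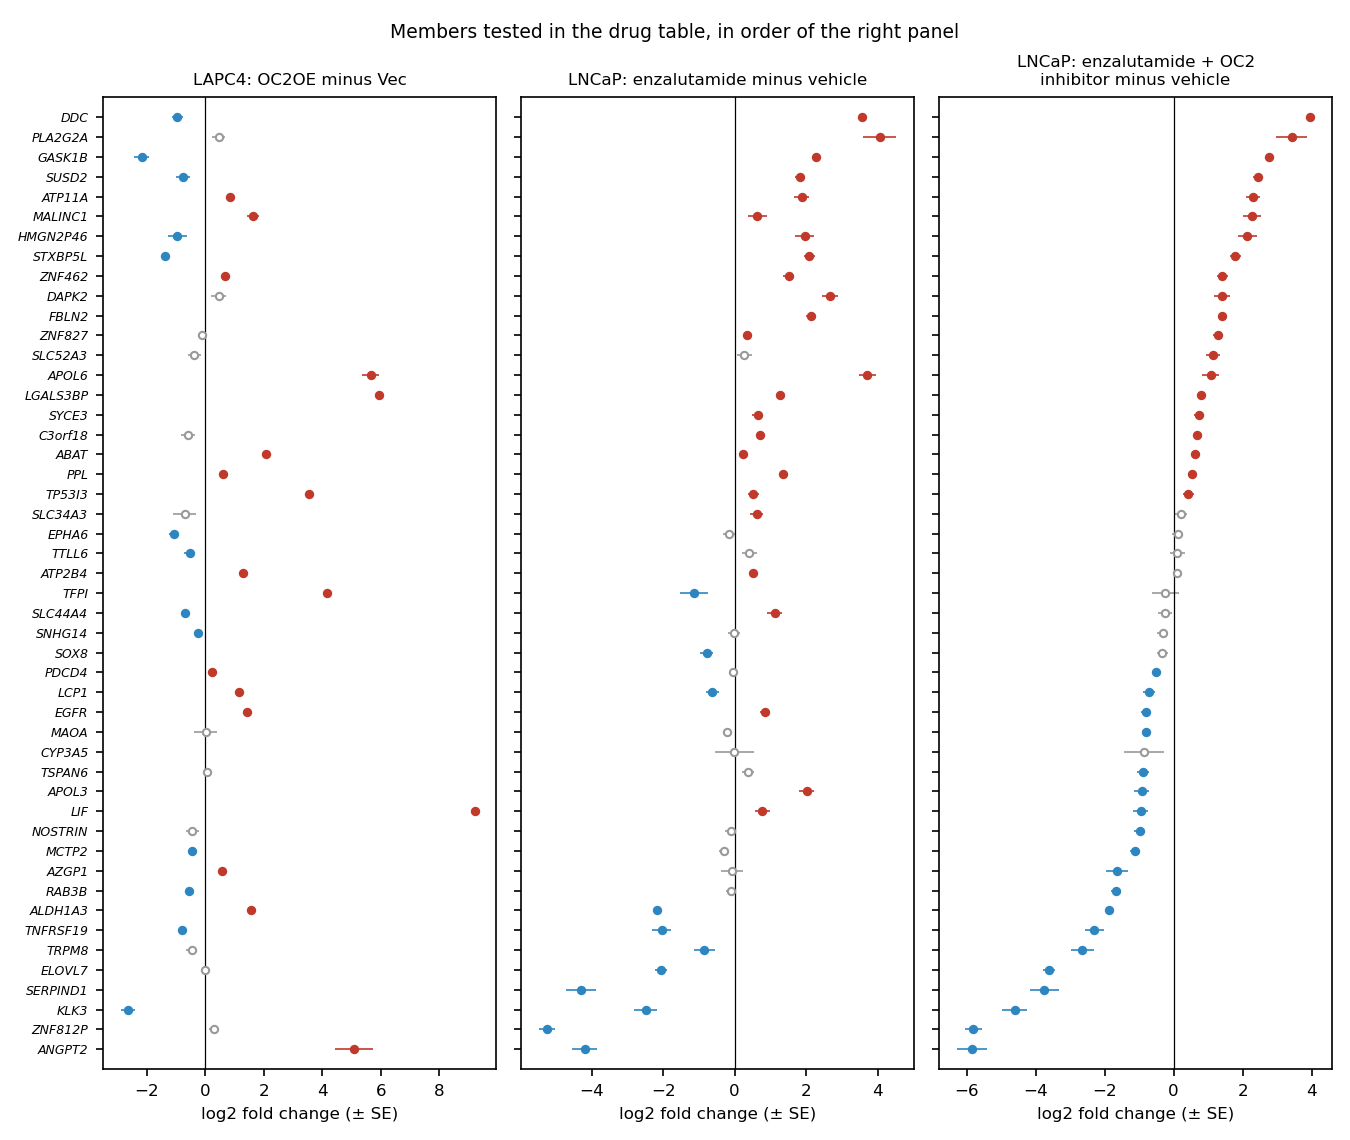
Log2 fold changes with their SE for 48 named members tested in the drug table, 42 of them also tested in LAPC4; blue points passed the test as lower, red as higher, and open grey points did not pass. KLK3 lies below 0 in every panel, DDC below 0 in LAPC4 and above 0 in both drug panels, and LIF above 0 in LAPC4 and with enzalutamide and below it with the combination.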

How the data were processed

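RNA sequencing from 23 libraries in 9 groups was analysed, grouped as the labels name them. FastQC 0.9.0, Bowtie2 and the hg38 build are named in the submitters' processing notes. The counting tool, gene annotation and strand setting were not given in the sources used here. For LAPC4 and the enzalutamide columns the authors deposited whole-number read counts. For the LNCaP table and the other drug columns the authors deposited estimated counts (expected counts that need not be whole), rounded here before testing. The enzalutamide columns carry no number that ties them to a sample and were used as members of their group.

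The members and lists were chosen with earlier results of these data known. LAPC4 was fitted on its own 6 libraries, and the 3 drug arms together, with edgeR 4.0.16 in R 4.3.3: TMM scaling, filterByExpr, the quasi-likelihood F-test and Benjamini-Hochberg adjustment over all genes, at 0.05. SE were derived from the F statistic. The procedure was tested on simulated counts. Named genes were members on a fixed list (up to 4 a list), the 12 with the largest ratio of shOC2 to OC2_OE, up to 6 called members each way per comparison with no overlap and a higher-group mean of 5 CPM or more, and the genes nearest each limit; other names were chosen after their values were seen. A current symbol was matched for 99.5% (LNCaP), 98.7% (LAPC4) and 64.8% (drug) of the tables' identifiers. Same-numbered vehicle and combination libraries deviated together (r = 0.158, 0.179 and 0.178 over genes). The reported tests used no pairing, and the replicate number entered only as a block in an alternative fit. Alternatives were RLE scaling, total counts, DESeq2 1.42.0, no filter, the replicate block, the 2 arms alone, and leaving out each library.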

Additional observations from a re-analysis of the deposited data

How the results depend on the processing

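The number of members was 58 under the rule and 10 with limits of 3, 3 and 2 in place of 2, 2 and 1.5; leaving out each LNCaP library in turn gave 51 to 62. With total counts in place of TMM factors, members higher with the combination than with enzalutamide numbered 5 rather than 10, and PDCD4 under enzalutamide went from -0.04, not past the threshold, to 0.30 (adjusted p = 0.0367). That scale raised the median of all genes under enzalutamide from 0.01 to 0.35, so PDCD4 moved with all genes. With RLE scaling, DESeq2, no filter beyond 1 count or the 2 arms fitted alone, every count of members lower or higher stayed within 1.5 times the reported one. Leaving out each library in turn gave 9 to 16 lower and 17 to 19 higher in LAPC4, 10 to 13 and 23 to 26 with enzalutamide, 19 to 19 and 19 to 20 with the combination, and 20 to 23 and 9 to 12 for the combination against enzalutamide. In LAPC4 same-numbered libraries did not deviate together (r = 0.101, -0.136 and -0.156), and the replicate block there gave 12 lower and 18 higher, while for the combination against vehicle the 2 arms alone gave 23 lower and 20 higher and the replicate block on them 24 and 20. No paired analysis was possible for the enzalutamide columns because they carry no matching number. The 2 groups of 2 LNCaP libraries behind each ratio limit the precision of the choice of members.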
